A study of Homo sapiens with 4 samples.

Results

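Fatty acid oxidation enzymes were examined in RNA sequencing libraries of 4 prostate cancer cell lines. The members are 34 genes chosen by name, and all 34 were found among the 22637 genes of the deposited table. Of these, 26 were assigned to mitochondria, 4 were assigned to peroxisomes and 4 activate fatty acids or acetate by joining them to coenzyme A. ECI2, placed with the mitochondrial members, also acts in peroxisomes. The series compares cells resistant to olaparib, an inhibitor of poly(ADP-ribose) polymerase, with the cells they came from. LNCaP is a castration-sensitive human prostate adenocarcinoma line and LN-OlapR is the olaparib-resistant line made from it. C4-2B descends from LNCaP and is castration-resistant, and 2B-OlapR is its olaparib-resistant counterpart. To obtain the resistant lines, the olaparib dose was raised during 1 year of culture, and the cells were then kept in 5 micromolar olaparib, whereas the labels call all 4 RNA samples untreated and the design text states that no selection agent was present during plating. Each line gave 1 library, so no difference has a replicate check, no p-value is given, and a difference between a resistant line and its parent cannot be told apart from a difference between 2 cultures.

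Beta-oxidation shortens a fatty acid step by step and releases acetyl-CoA, NADH and reduced flavin for respiration. Long-chain fatty acids are first activated to acyl-CoA, then carried into mitochondria by the carnitine shuttle, where an acyl-CoA dehydrogenase, a hydratase, a hydroxyacyl-CoA dehydrogenase and a thiolase act in turn. The dehydrogenases pass their electrons through the electron transfer flavoprotein to ubiquinone. Very long and branched chains are handled by peroxisomes, and branched-chain fatty acid oxidation in peroxisomes is a known feature of prostate cancer.

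The unit of levels is normalized CPM, which scales counts to library size after correction by TMM, a trimmed mean of log ratios between libraries. Differences are log2 ratios of normalized counts with a pseudocount of 0.5 counts, and the interval in brackets is the 95% interval from the counts of both libraries, which covers counting error only. 2B-OlapR against C4-2B is called the 2B pair and LN-OlapR against LNCaP the LN pair. Genes whose mean over the 2 libraries compared reached 1 normalized CPM were analyzed, and a difference of at least 1.5-fold was called higher or lower. In bulk RNA, fewer cells with a transcript and less transcript per cell cannot be told apart.

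The sequence before the start of 3 transcription units is shown, because ACADL and ACSL4 had the lowest and the highest log2 ratio of the members analyzed between 2B-OlapR and C4-2B, and HADHA and HADHB, the subunits of the mitochondrial trifunctional protein, are transcribed away from each other from the same stretch of DNA. Sequences are from RefSeq on GRCh38.p14, and capitals mark GGGCGG, the GC box bound by SP1-type factors, on either strand. ACADL is shown on the minus strand at chr2:210225448-210225697, ACSL4 on the minus strand at chrX:109733258-109733507, and, on the plus strand, the part of the DNA between HADHA and HADHB that lies within 250 bases upstream of both starts, at chr2:26244689-26244882.
ACADL: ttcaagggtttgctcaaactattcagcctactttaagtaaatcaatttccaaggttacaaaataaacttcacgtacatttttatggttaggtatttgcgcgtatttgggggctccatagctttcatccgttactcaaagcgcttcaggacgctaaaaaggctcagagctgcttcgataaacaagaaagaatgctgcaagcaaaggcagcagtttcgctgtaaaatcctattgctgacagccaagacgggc
ACSL4: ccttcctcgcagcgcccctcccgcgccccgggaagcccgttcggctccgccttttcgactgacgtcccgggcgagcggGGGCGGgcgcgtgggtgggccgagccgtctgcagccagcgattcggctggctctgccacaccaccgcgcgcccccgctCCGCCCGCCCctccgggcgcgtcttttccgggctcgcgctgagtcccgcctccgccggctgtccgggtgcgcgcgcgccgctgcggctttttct
HADHA and HADHB: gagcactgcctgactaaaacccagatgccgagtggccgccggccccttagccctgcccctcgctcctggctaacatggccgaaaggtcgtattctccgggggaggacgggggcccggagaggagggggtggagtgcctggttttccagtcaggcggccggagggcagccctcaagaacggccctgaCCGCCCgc
The ACADL window held 42.0% G and C, 9 CpG dinucleotides and no GC box. The ACSL4 window held 77.2% G and C, 42 CpG dinucleotides and 3 GC boxes, of which 2 overlap. The 194 bases shown between HADHA and HADHB held 68.6% G and C, 14 CpG dinucleotides and 1 GC box, and the RefSeq starts of the genes lie 306 bases apart, at 26244632 for HADHA on the minus strand and 26244939 for HADHB on the plus strand.

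RefSeq start windows were found for 28 of the 34 members, with 42 windows in all, since some genes have several starts. Over the 250 bases before the start, the median content of G and C was 65.8% in the member windows and 58.0% in all 35116 windows. GGGCGG on either strand was in 29 of the 42 member windows, or 69.0%, and in 42.6% of all windows. CCAAT, the box bound by NF-Y, was in 8 member windows, or 19.0%, and in 32.0% of all windows. AGGTCA, the core motif of nuclear receptors, was in 2 member windows, or 4.76%, those of ACSL5 and ACAD10, and in 12.1% of all windows. The DR1 element that peroxisome proliferator-activated receptors are known to bind, a pair of AGGTCA cores in the same direction spaced by 1 base, was in no member window and in 0.0171% of all windows. An exact match to this element is so rare that its absence from 42 windows carries no information about the members. These matches describe the letters of the windows only.

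All 11 markers of prostate epithelium examined were at 1 normalized CPM or more in every library, with a summed level from 4182 in LNCaP to 7662 in LN-OlapR. The library labelled LNCaP stands apart from the others in some of these genes, among them KLK3, the gene of prostate-specific antigen, which was at 53.1 normalized CPM there and between 1870 and 2685 in the other libraries. With 1 LNCaP library, no value of the LN pair can be given without it. Among markers of other cells, 4 of 7 stromal markers are in the table with a summed level of 9.36 to 20.6 normalized CPM. CD68, the only one of 6 immune markers in the table, was at 0.409 to 5.14, VWF, the only one of 4 endothelial markers, at 2.61 to 12.2, and the only one of 4 basal markers at 0.112 to 0.557. Hepatocyte and adipocyte markers, 3 of 5 in the table, had a summed level of 9.78 in LNCaP and of at most 2.35 in the other libraries, where ALB had 0 or 1 counts against 99 in LNCaP. The part of these differences and of other cells in the results was not tested. Totals were between 19950537 and 26394267 counts, and 3 counts, the limit that a count of 0 allows, correspond to 0.112 to 0.147 normalized CPM.

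About as many oxidation enzymes were higher as lower in each resistant line, and most differences were small. In the 2B pair 33 of the 34 members were analyzed, of which 3 were at least 1.5-fold higher in 2B-OlapR (ACSL1, ACSL4 and ACOX3) and 4 were lower (ACADL, ACADS, ACAD10 and ECI2). That is 9.09% and 12.1% of the members, against 10.7% and 13.5% of the 15527 genes analyzed. In the LN pair 31 members were analyzed, of which 1 was higher in LN-OlapR, ACAT1, and 1 was lower, ACAA2. These are 3.23% each, against 10.6% and 10.8% of 15373 genes. The median log2 ratio of the members was 0.01 within the 2B pair and 0.03 within the LN pair, and that of all genes was -0.0003 and -0.004. When scaled by total counts, the median of the members turned to -0.03 and -0.05, and that of all genes was -0.0421 and -0.0882.

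With a call at 2-fold, the 2B pair had 2 members higher and 1 lower, against 4.42% and 5.65% of all genes, and the LN pair 0 higher and 1 lower, against 4.64% and 4.83%. With a call at a log2 ratio of 0.32, 7 members were higher and 8 lower in the 2B pair, or 21.2% and 24.2%, beside 22.1% and 25.2% of all genes. The LN pair had 7 higher and 6 lower at this limit, or 22.6% and 19.4%, beside 20.9% and 21.7%. Log2 ratios within 0.32 of 0 were seen for 18 of 33 members of the 2B pair and 18 of 31 of the LN pair. The shares of members called were near or below those of all genes, and the few members that stood out are described by role.

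**Figure D1:**
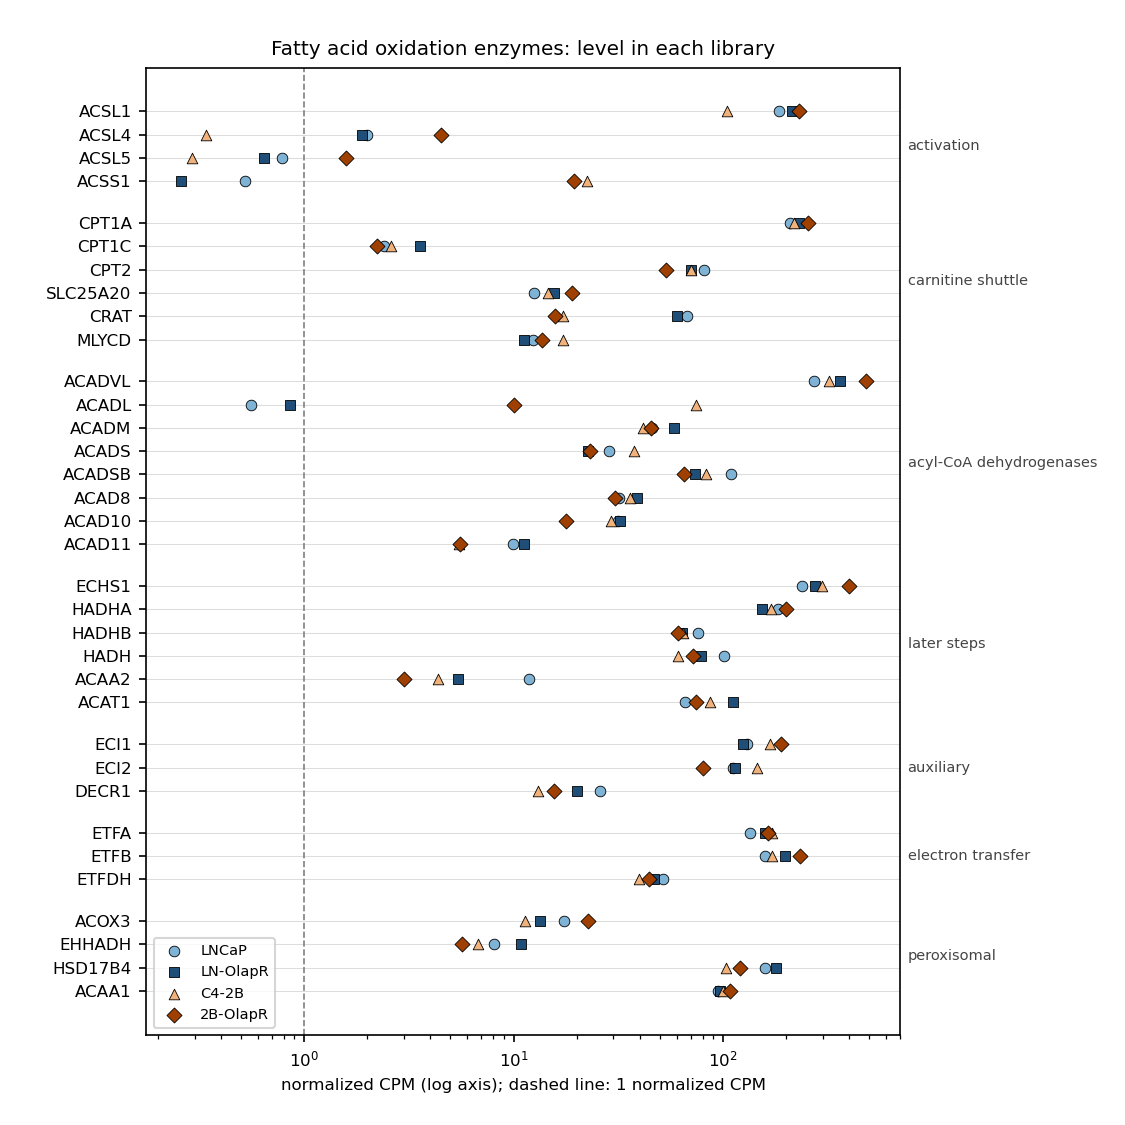
Level of each fatty acid oxidation enzyme in each of the 4 libraries, in normalized CPM on a log axis, grouped by role, with a dashed line at 1 normalized CPM. Most members sit between 10 and 500 with the 4 libraries close together, while ACADL, ACSS1, ACSL4 and ACSL5 spread by more than 5-fold.

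Per length, the members covered a wide range, and the same enzymes led in every library. The per-length level is the count per kilobase of the longest GENCODE release 29 transcript, scaled to the same total in every library over the genes with a length. ECHS1, the enoyl-CoA hydratase of the mitochondrial spiral for short chains, ranked first of the 34 with 341 (LNCaP), 374 (LN-OlapR), 436 (C4-2B) and 565 (2B-OlapR). ACADVL, the dehydrogenase for very long chains, was next with 268, 335, 323 and 467 in the same order, and ECI1, an isomerase for unsaturated chains, came after it with 196, 178, 256 and 282. The order of ECHS1, ACADVL and ECI1 was the same in the 4 libraries, but it rests on the transcript lengths used. In normalized CPM, ACADVL was above ECHS1 in every library. ECHS1 made up 16.3% of the summed per-length level of the members in LNCaP and 17.2% in LN-OlapR. Its share was 18.7% for C4-2B and 21.7% for 2B-OlapR. In contrast, ACADL took rank 33 (LNCaP), 32 (LN-OlapR), 10 (C4-2B) and 27 (2B-OlapR).

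Among the activating enzymes, both long-chain acyl-CoA synthetases called in the 2B pair were low in C4-2B. ACSL1, the main long-chain acyl-CoA synthetase of oxidative tissues, on chromosome 4 from 184755595 to 184826818 (GRCh38, minus strand), was at 184.8 normalized CPM (LNCaP), 213.0 (LN-OlapR), 104.4 (C4-2B) and 230.6 (2B-OlapR). C4-2B was thus the low library, and the other libraries lay within 184.8 and 230.6. The log2 ratio was 1.14 (1.07 to 1.22) in the 2B pair, or 2.21-fold, and 0.20 (0.15 to 0.26) in the LN pair.

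ACSL4, which prefers arachidonic acid and is known for its part in ferroptosis, on chromosome X from 109624244 to 109733403 (minus strand), had 54 counts (LNCaP), 44 (LN-OlapR), 7 (C4-2B) and 93 (2B-OlapR). These are 2.01, 1.89, 0.342 and 4.49 normalized CPM, so C4-2B was again lowest and 2B-OlapR highest. The 12.3-fold difference of the 2B pair, a log2 ratio of 3.62 (2.55 to 4.70), rests on the 7 counts of C4-2B. In the LN pair the ratio of ACSL4 was -0.09 (-0.66 to 0.48), so its direction could not be resolved at this depth. ACSL5, a synthetase of mitochondria and endoplasmic reticulum, was under the filter in every comparison, with 21 counts (LNCaP), 15 (LN-OlapR), 6 (C4-2B) and 33 (2B-OlapR). Its order over the libraries was that of ACSL4.

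ACSS1, the mitochondrial acetyl-CoA synthetase that activates acetate, had 14 counts in LNCaP and 6 in LN-OlapR but 460 for C4-2B and 404 for 2B-OlapR. It separated the 2 backgrounds and not the resistant lines from their parents. Its log2 ratio in the 2B pair was -0.21 (-0.40 to -0.01), and in the LN pair it was under the filter.

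ACSL3, a synthetase of lipid droplets and endoplasmic reticulum, is no member. Per length, it was the most abundant paralog of the family in 3 of the 4 libraries. It was at 333 normalized CPM (LNCaP), 439 (LN-OlapR), 486 (C4-2B) and 237 (2B-OlapR). Its log2 ratio was -1.04 (-1.09 to -0.99) in the 2B pair, opposite to ACSL1, and 0.40 (0.36 to 0.44) in the LN pair. Of the summed per-length level of ACSL1, ACSL3, ACSL4, ACSL5 and ACSL6, ACSL1 made up 22.9% for C4-2B and 56.5% for 2B-OlapR, and ACSL3 76.9% and 41.9%. In LNCaP and LN-OlapR, ACSL1 made up 43.1% and 40.0% and ACSL3 56.1% and 59.5%. The summed per-length level of the family was 241 (LNCaP), 284 (LN-OlapR), 263 (C4-2B) and 228 (2B-OlapR). Per length, the leading synthetase thus differed between C4-2B and 2B-OlapR, while the sum differed by far less than its parts. In normalized CPM, ACSL3 remained just above ACSL1 in 2B-OlapR, at 237 and 230.6, so this order rests on the transcript lengths used.

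**Figure D2:**
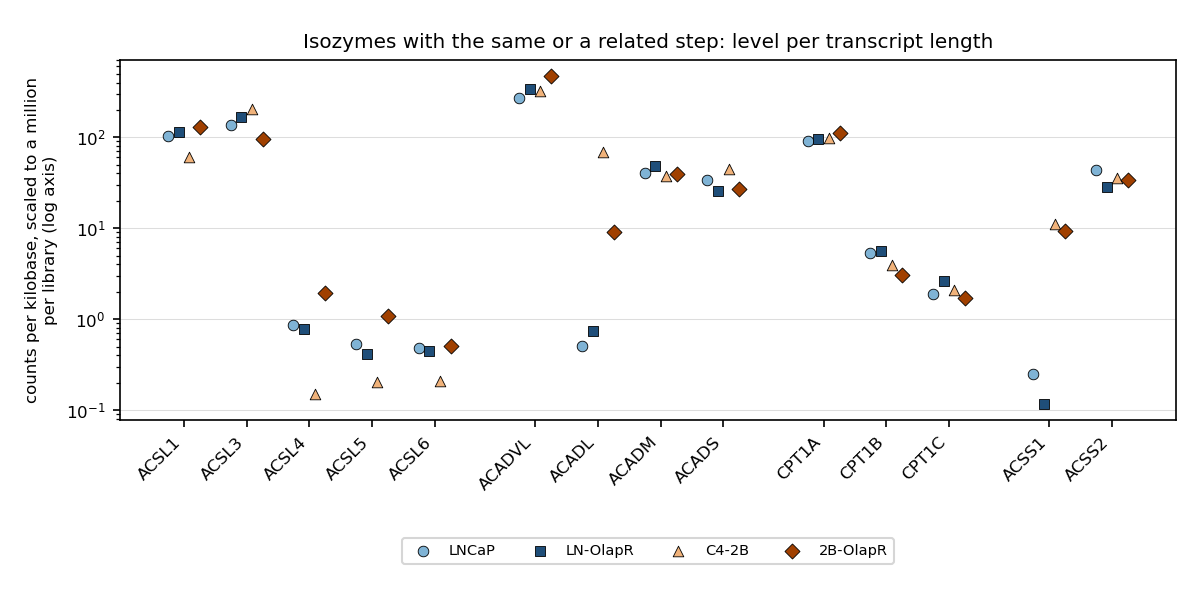
Members and paralogs that act on the same step, by library. Points are per-length levels on a log axis, and the order of genes depends on the transcript lengths used. ACSL3 lies above ACSL1 in C4-2B and below it in 2B-OlapR, where they made up 41.9% and 56.5% of the family, and ACADL is at 69.2 in C4-2B and under 1 in LNCaP and LN-OlapR.

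The carnitine shuttle showed no difference of 1.5-fold in either pair. CPT1A, the outer membrane palmitoyltransferase that sets the entry of long chains, was at 208.5 normalized CPM (LNCaP), 230.5 (LN-OlapR), 218.5 (C4-2B) and 254.8 (2B-OlapR). It was a little higher in both resistant lines, with log2 ratios of 0.22 (0.16 to 0.28) and 0.15 (0.09 to 0.20) in the 2B and LN pairs. CPT2, its inner membrane partner, was at 81.5, 70.1, 70.3 and 53.2 in the same order of libraries. CPT2 was lower in both resistant lines, by a log2 ratio of -0.40 (-0.52 to -0.29) and -0.22 (-0.31 to -0.12).

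SLC25A20, the carrier that exchanges acylcarnitine for carnitine, was at 12.5 (LNCaP), 15.6 (LN-OlapR), 14.7 (C4-2B) and 19.0 (2B-OlapR). It was higher in both resistant lines, with 0.37 (0.16 to 0.59) and 0.33 (0.11 to 0.54). The neuronal paralog CPT1C was low throughout, with per-length levels of 1.72 to 2.64, whereas CPT1A had 91.8 to 111. Its log2 ratio was -0.22 (-0.79 to 0.35) within the 2B pair and 0.56 (0.09 to 1.02) within the LN pair. MLYCD, which degrades malonyl-CoA, the inhibitor of CPT1, was under 20 normalized CPM in every library, with -0.33 (-0.55 to -0.10) within the 2B pair and -0.14 (-0.37 to 0.10) within the LN pair. CRAT, the carnitine acetyltransferase, was at 67.5 in LNCaP and 60.1 in LN-OlapR but 17.2 for C4-2B and 15.8 for 2B-OlapR, so it followed the background, as ACSS1 did in the opposite direction.

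Of the 8 acyl-CoA dehydrogenases, 3 were called in the 2B pair, all lower in 2B-OlapR, and none of the 7 analyzed was called in the LN pair. Of all genes, 10.7% were called higher and 13.5% lower in the 2B pair, and 10.6% and 10.8% in the LN pair. ACADL, the dehydrogenase for long and branched chains, lies on chromosome 2 from 210187939 to 210225491 (minus strand). It had 15 counts (LNCaP), 20 (LN-OlapR), 1525 (C4-2B) and 208 (2B-OlapR), or 0.558, 0.857, 74.5 and 10.04 normalized CPM. Both libraries of the LN pair thus had few counts, C4-2B was far above the other libraries, and 2B-OlapR lay between. ACADL was 7.41-fold lower in 2B-OlapR than its level in C4-2B, a log2 ratio of -2.89 (-3.10 to -2.68), and this was the lowest ratio of any member. AC006994.2, annotated as a noncoding RNA from the same promoter region, lies antisense across all 37553 bases of ACADL. It had 8 counts (LNCaP), 7 (LN-OlapR), 68 (C4-2B) and 15 (2B-OlapR), the same high library. As the strand setting of the counting is not given in the sources used here, reads of the 2 genes may not be fully separated.

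ACADS, the dehydrogenase for short chains, was at 28.4 normalized CPM (LNCaP), 22.7 (LN-OlapR), 37.4 (C4-2B) and 23.1 (2B-OlapR). It was lower in both resistant lines, with a log2 ratio of -0.70 (-0.86 to -0.53) within the 2B pair and -0.33 (-0.48 to -0.17) within the LN pair. ACAD10, a less characterized member of the family, was at 31.4, 32.3, 29.1 and 17.7, so 2B-OlapR alone was low, with -0.71 (-0.90 to -0.53) within the 2B pair and 0.04 (-0.10 to 0.18) within the LN pair. ACAD10 shares 3218 bases on the same strand with AC002996.1, which had 46 counts for C4-2B and 2 for 2B-OlapR.

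ACADVL went the other way. It was at 273.4 (LNCaP), 360.3 (LN-OlapR), 321.6 (C4-2B) and 480.3 (2B-OlapR), and the resistant lines were the 2 highest libraries. The ratio was 0.58 (0.53 to 0.62) in the 2B pair, or 1.49-fold, just under the call and past it with DESeq2 or upper quartile scaling, and 0.40 (0.35 to 0.44) in the LN pair. ACADM, the dehydrogenase for medium chains, was between 41.4 and 58.4 normalized CPM, with 0.14 (0.00 to 0.27) and 0.35 (0.24 to 0.47). The per-length ratio of ACADVL to ACADM was 6.67 in LNCaP and 6.87 in LN-OlapR, and their counting intervals overlap. The same ratio was 8.65 for C4-2B and 11.8 for 2B-OlapR, whose intervals do not.

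Enzymes of branched amino acid breakdown are in the same family. ACADSB, for short branched chains, was at 109.4 (LNCaP), 73.5 (LN-OlapR), 83.0 (C4-2B) and 65.2 (2B-OlapR), lower in both resistant lines with -0.35 (-0.45 to -0.25) within the 2B pair and -0.57 (-0.66 to -0.49) within the LN pair. ACAD8, the isobutyryl-CoA dehydrogenase of valine breakdown, was between 30.5 and 38.7, with -0.24 (-0.39 to -0.09) within the 2B pair and 0.28 (0.15 to 0.42) within the LN pair. ACAD11 was between 5.52 and 11.3, and its intervals include 0 in both pairs. Its reads can be shared with overlapping genes, so its values are uncertain.

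The later steps held the calls of the LN pair. ACAT1, the mitochondrial acetoacetyl-CoA thiolase, which also acts on ketone bodies and isoleucine, was at 65.7 normalized CPM (LNCaP), 111.8 (LN-OlapR), 86.4 (C4-2B) and 74.3 (2B-OlapR). LN-OlapR was the highest library. The log2 ratio was 0.77 (0.68 to 0.85) within the LN pair and -0.22 (-0.32 to -0.12) within the 2B pair. ACAA2, the thiolase of mitochondrial fatty acid oxidation, was at 11.9, 5.44, 4.35 and 2.99 in the same order, so LNCaP stood above the other libraries. It was lower in both resistant lines, with -1.13 (-1.42 to -0.83) within the LN pair and -0.54 (-1.002 to -0.07) within the 2B pair.

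ECHS1 was at 239.1 (LNCaP), 276.0 (LN-OlapR), 298.1 (C4-2B) and 399.1 (2B-OlapR), higher in both resistant lines with 0.42 (0.37 to 0.47) within the 2B pair and 0.21 (0.16 to 0.26) within the LN pair. HADH, which oxidizes medium and short hydroxyacyl-CoA, was at 101.1, 78.2, 60.7 and 71.96. Its ratio was 0.24 (0.14 to 0.35) within the 2B pair and -0.37 (-0.46 to -0.28) within the LN pair.

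The subunits of the trifunctional protein, transcribed away from each other from the stretch shown above, were not in step in the 2B pair. HADHA, the alpha subunit with hydratase and dehydrogenase activity, was at 183.7 normalized CPM (LNCaP), 154.4 (LN-OlapR), 169.2 (C4-2B) and 199.2 (2B-OlapR). HADHB, the beta subunit with thiolase activity, was at 75.9, 63.7, 64.6 and 61.0. In the LN pair both had a log2 ratio of -0.25, with intervals of -0.31 to -0.19 for HADHA and -0.35 to -0.16 for HADHB. In the 2B pair HADHA had 0.23 (0.17 to 0.30) and HADHB -0.08 (-0.19 to 0.03). The per-length ratio of HADHA to HADHB was 2.26 (2.15 to 2.38) in LNCaP, 2.26 (2.13 to 2.40) in LN-OlapR and 2.45 (2.30 to 2.61) in C4-2B. In 2B-OlapR it was 3.05 (2.86 to 3.25), above the intervals of the other libraries. The gene models overlap by 1557 bases in antisense, and pseudogenes of HADHA and HADHB are in the table with 11 to 53 counts.

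Among the auxiliary enzymes for unsaturated chains, ECI2 was called in the 2B pair. ECI2, an isomerase of mitochondria and peroxisomes, was at 111.6 (LNCaP), 114.2 (LN-OlapR), 145.2 (C4-2B) and 80.7 (2B-OlapR), the highest and lowest values being those of the 2B pair. Its log2 ratio was -0.85 (-0.93 to -0.76) there and 0.03 (-0.04 to 0.11) in the LN pair. ECI1, the mitochondrial isomerase, was at 130.8, 125.1, 167.2 and 190.1, with 0.19 (0.12 to 0.25) within the 2B pair and -0.06 (-0.14 to 0.01) within the LN pair. DECR1, the mitochondrial dienoyl-CoA reductase, was at 25.9, 20.02, 13.1 and 15.5, with 0.24 (0.01 to 0.47) within the 2B pair and -0.37 (-0.54 to -0.20) within the LN pair.

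The electron transfer flavoprotein and its ubiquinone oxidoreductase had no call in either pair. ETFB, the beta subunit, was at 158.4 normalized CPM (LNCaP), 198.4 (LN-OlapR), 171.6 (C4-2B) and 232.7 (2B-OlapR), higher in both resistant lines with 0.44 (0.38 to 0.50) within the 2B pair and 0.33 (0.27 to 0.39) within the LN pair. ETFA, the alpha subunit, was at 134.7, 158.2, 171.8 and 164.7, with -0.06 (-0.13 to 0.01) and 0.23 (0.17 to 0.30). The per-length ratio of ETFB to ETFA was 0.643 (0.614 to 0.674) for C4-2B and 0.910 (0.871 to 0.951) for 2B-OlapR, which do not overlap, and 0.757 (0.724 to 0.791) in LNCaP and 0.808 (0.773 to 0.843) in LN-OlapR, which do. ETFDH, the oxidoreductase, was between 39.7 and 51.7, with 0.16 (0.02 to 0.29) and -0.15 (-0.26 to -0.03).

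Of the 4 peroxisomal members, ACOX3 was called within the 2B pair and none within the LN pair. ACOX3, an acyl-CoA oxidase for branched chains, was at 17.4 (LNCaP), 13.3 (LN-OlapR), 11.3 (C4-2B) and 22.6 (2B-OlapR). 2B-OlapR was the highest library and C4-2B the lowest. The log2 ratio was 0.99 (0.77 to 1.22) in the 2B pair, or 1.99-fold, and -0.38 (-0.59 to -0.17) in the LN pair. HSD17B4, the peroxisomal D-bifunctional protein, was at 158.5, 178.4, 103.7 and 120.4, with 0.21 (0.13 to 0.30) and 0.17 (0.11 to 0.23). EHHADH, the L-bifunctional protein, was between 5.65 and 10.9, with -0.27 (-0.62 to 0.09) within the 2B pair and 0.44 (0.18 to 0.70) within the LN pair. ACAA1, the peroxisomal thiolase, was between 94.7 and 107.9, with 0.10 (0.02 to 0.19) and 0.03 (-0.05 to 0.11).

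**Figure D3:**
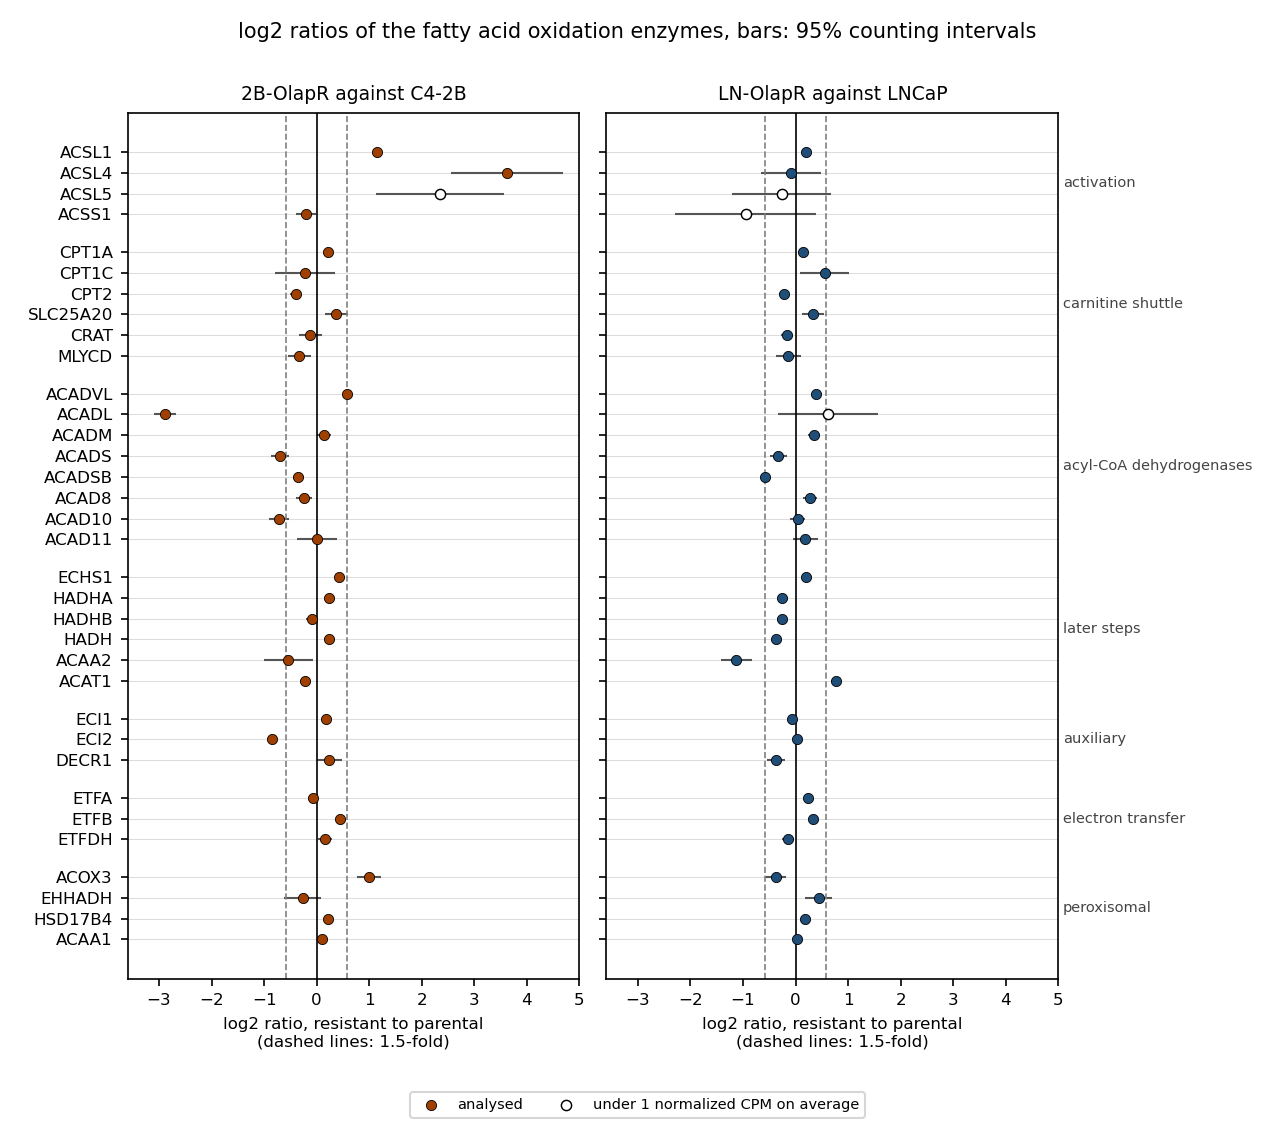
Log2 ratio of each member for the 2B pair and the LN pair, with bars for the 95% counting interval, dashed lines at 1.5-fold and open points for members under the filter. Most points lie within the dashed lines in both panels, ACSL4 and ACADL lie farthest out in the 2B pair at 3.62 and -2.89, and ACAT1 and ACAA2 are the filled points outside the lines in the LN pair.

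By assigned location, the 26 mitochondrial members had a median log2 ratio of -0.07 within the 2B pair and 0.03 within the LN pair. The 4 peroxisomal members had 0.16 and 0.10. The peroxisomal median became 0.06 in the 2B pair when ECI2 and ACAD11 were added to the group, and 0.02 in the LN pair under total counts or 0.03 with a minimum mean of 10 normalized CPM. Their summed level, in which abundant enzymes weigh most, was 2206 normalized CPM (LNCaP), 2341 (LN-OlapR), 2361 (C4-2B) and 2573 (2B-OlapR) for the mitochondrial members. For the peroxisomal members it was 279, 299, 222 and 257. With TMM scaling, both sums were higher in each resistant line than in its parent, and sums under total counts were not computed. Per length, the mitochondrial sum was 1860 (LNCaP), 1930 (LN-OlapR), 2144 (C4-2B) and 2341 (2B-OlapR). The peroxisomal sum per length was nearly equal within the LN pair, at 131.0 in LNCaP and 131.8 in LN-OlapR. Within the 2B pair it was 108.1 in C4-2B and 123.5 in 2B-OlapR.

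The direction was compared between the pairs, which share no library, for the 31 members analyzed in both. In both resistant lines 10 members were higher and 7 were lower, or 32.3% and 22.6%, beside 28.5% and 29.1% of the 14602 genes analyzed in both pairs. Under total counts 8 were higher and 9 lower, so the balance between the directions turned. That scaling also moved all genes down, to medians of -0.0421 (2B pair) and -0.0882 (LN pair), and the shares of genes given here are under TMM. Where the counting intervals exclude 0 in both pairs, 8 members were higher in both (ACADVL, ETFB, CPT1A, ACADM, ECHS1, HSD17B4, ACSL1 and SLC25A20), or 25.8%, beside 14.1% of genes. With the same condition 4 were lower in both (ACADS, CPT2, ACAA2 and ACADSB), or 12.9%, beside 13.2%. In opposite directions with intervals that exclude 0 were 7 members, or 22.6%, beside 16.3% of genes. Genes with more counts have narrower intervals and meet this condition more easily. The genes set beside the members were not matched to them for level. ACADVL, ECHS1 and ETFB, which are among the most abundant members, are in the group higher in both.

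More members passed the limit between the parental lines than within either pair, and more of all genes did too. C4-2B was compared with LNCaP, and as both libraries are also in the pairs, a high or low value in either library enters 2 comparisons. Of 33 members analyzed, 2 were at least 1.5-fold higher in C4-2B (ACADL and ACSS1) and 9 were lower (ACSL4, CRAT, ACAA2, DECR1, ACAD11, ACSL1, HADH, HSD17B4 and ACOX3). That is 6.06% and 27.3% of the members, beside 16.1% and 16.1% of the 15580 genes analyzed. At 2-fold, 2 members were higher and 3 lower, beside 8.0% and 7.18% of genes, and at a log2 ratio of 0.32, 8 were higher and 11 lower, beside 27.3% and 28.2%. The median of the members was -0.11, which turned to 0.08 with a minimum mean of 10 normalized CPM, and that of all genes -0.0163.

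ACADL was 129-fold higher in C4-2B than in LNCaP, a log2 ratio of 7.01 (6.29 to 7.74), and ACSS1 was 41.7-fold higher, 5.38 (4.63 to 6.14), both from 15 counts or fewer in LNCaP. CRAT was 3.92-fold lower in C4-2B, with -1.97 (-2.14 to -1.81), and ACSL4 had -2.47 (-3.57 to -1.37). ACAA2 had -1.45 (-1.78 to -1.11), DECR1 -0.98 (-1.18 to -0.77), ACAD11 -0.84 (-1.15 to -0.52) and HADH -0.73 (-0.83 to -0.64). The peroxisomal members HSD17B4 and ACOX3 both had -0.61, with intervals of -0.69 to -0.54 and -0.84 to -0.39. In the 2B pair ACSS1 and CRAT stayed within 1.5-fold, whereas ACSL1, ACSL4 and ACOX3, lower in C4-2B than in LNCaP, were higher in 2B-OlapR than in its parent, and ACADL, higher in C4-2B than in LNCaP, was lower in 2B-OlapR.

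Other genes of the pathway were counted by function. Of 32 further oxidation enzymes analyzed, 3 lay at least 1.5-fold higher and 6 lower within the 2B pair, with 2 higher and 4 lower within the LN pair. The shares of all genes, to be set beside this and the next counts, are 10.7% and 13.5% (2B pair) and 10.6% and 10.8% (LN pair). SLC22A5, the plasma membrane carnitine transporter, was at 34.7 normalized CPM (LNCaP), 29.6 (LN-OlapR), 22.1 (C4-2B) and 35.9 (2B-OlapR), with 0.70 (0.53 to 0.86) in the 2B pair. ECH1, a dienoyl-CoA isomerase, was at 427, 405, 262 and 397, with 0.60 (0.55 to 0.65). Both had their lowest level in C4-2B. ACOT2, a mitochondrial acyl-CoA thioesterase, was at 68.0, 42.7, 83.7 and 31.5 and lower in both resistant lines, with -1.41 (-1.54 to -1.28) and -0.67 (-0.78 to -0.56). Its near-identical paralog ACOT1 had -1.52 and -0.94, and reads of these 2 genes can be exchanged, so both are uncertain. CROT, the peroxisomal carnitine octanoyltransferase, had -0.62 (-0.82 to -0.42) in the 2B pair. Within the LN pair ACSM3, a medium-chain acyl-CoA synthetase, was at 38.9 in LNCaP and 8.96 in LN-OlapR, with -2.12 (-2.33 to -1.90), ACAT2, the cytosolic thiolase of sterol synthesis, had -0.85 (-0.96 to -0.75), and ACAD9, a dehydrogenase that also assembles complex I, had 0.59 (0.50 to 0.67).

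Of 20 genes of peroxisome assembly and import analyzed, 0 were higher and 1 was lower in the 2B pair, ABCD4, a transporter known for cobalamin export from lysosomes, with -0.65 (-0.86 to -0.43). The LN pair had 2 higher and 1 lower. PEX6, an ATPase that recycles the import receptor, had 0.89 (0.72 to 1.07) and PEX11A, a factor of peroxisome division, -0.71 (-0.96 to -0.46) in the LN pair.

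Of 20 regulators analyzed, 2 lay higher and 3 lower within the 2B pair, with 2 higher and 2 lower within the LN pair. RXRA, the partner receptor of the peroxisome proliferator-activated receptors, was at 134, 165, 166 and 249 in the order LNCaP, LN-OlapR, C4-2B and 2B-OlapR, with 0.59 (0.53 to 0.65) in the 2B pair. PRKAA2, a catalytic subunit of AMP-activated kinase, was at 3.24, 14.6, 47.4 and 10.1, high in C4-2B as ACADL was, with -2.22 (-2.44 to -2.01) in the 2B pair. In the LN pair, where its mean is under 10 normalized CPM and it was chosen after its values were seen, PRKAA2 had 2.17 (1.83 to 2.51), the opposite direction. ACACB, the mitochondrial acetyl-CoA carboxylase that makes malonyl-CoA near CPT1, had -0.65 (-0.87 to -0.42) in the 2B pair. Of the LN pair's calls, PRKAA1, the other catalytic subunit, had 0.63 (0.56 to 0.70), and PPARD, a receptor of fatty acids, -0.64 (-0.80 to -0.48). Chosen after their values were seen, PPARA was at 17.1 to 26.5 normalized CPM, PPARG at 7.96, 1.33, 2.20 and 5.07, and the coactivator PPARGC1A at 1.23, 1.20, 3.13 and 0.724.

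Of 14 targets listed for peroxisome proliferator-activated receptor alpha, 4 were analyzed in each pair, and none was called within the LN pair. PDK4 and CYP4A11 of this list were not analyzed here. All 6 ketone body genes listed had log2 ratios below 0 in the 2B pair, 2 of them past 1.5-fold, and in the LN pair 3 were above and 3 below 0, with 1 past 1.5-fold, lower.

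Of 14 genes of fatty acid uptake, storage and lipolysis analyzed in the 2B pair, 2 were higher and 3 lower, and of 13 in the LN pair 4 were higher and 0 lower, beside 10.7% and 13.5% of all genes in the former and 10.6% and 10.8% in the latter. LPL, which releases fatty acids from lipoproteins, had 0 counts in LNCaP and LN-OlapR and was at 24.6 normalized CPM for C4-2B and 198.2 for 2B-OlapR, with 3.01 (2.88 to 3.14) in the 2B pair. SLC27A2, a very long chain acyl-CoA synthetase and transporter, had 0.64 (0.44 to 0.84). MGLL, the monoglyceride lipase, was at 8.41, 25.8, 62.7 and 22.7 in the usual order, with -1.47 (-1.62 to -1.31) within the 2B pair and 1.62 (1.40 to 1.84) within the LN pair. HILPDA, an inhibitor of lipolysis, had -1.39 (-1.54 to -1.25) and SLC27A1, a fatty acid transporter, -0.69 (-0.93 to -0.46) in the 2B pair. DGAT2 and DGAT1, the last enzymes of triglyceride synthesis, had 0.65 (0.54 to 0.76) and 0.63 (0.50 to 0.76) in the LN pair.

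**Figure D4:**
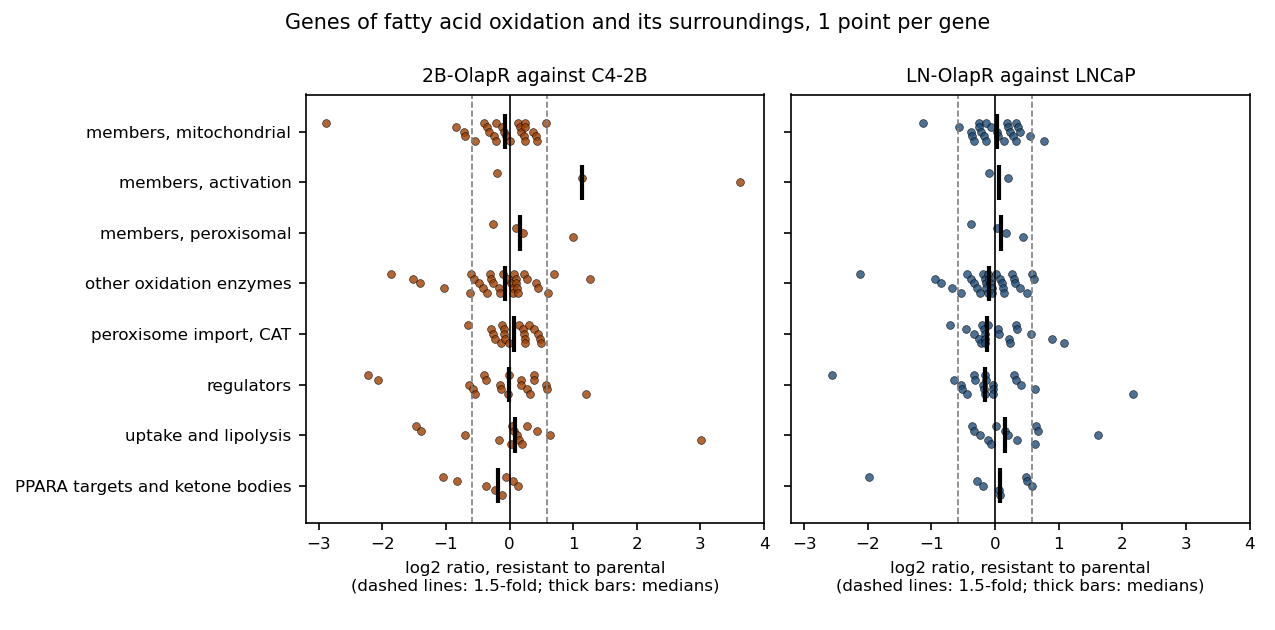
Log2 ratios of the members by role and of the other lists of the pathway, in the 2B and LN pairs, for genes that passed the filter. Each point is a gene, thick bars are medians and dashed lines mark 1.5-fold. Points scatter on both sides of 0 in most lists, and the activation group of the 2B pair has its median at 1.14 from 3 genes.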

How the data were processed

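For each of 4 cell lines, 1 stranded mRNA library was prepared from 100 ng of total RNA. Plating time before RNA isolation is given as 72 hours in the methods and 48 hours in the deposited design text. The authors deposited estimated counts per gene, not scaled between libraries. The submitters' processing notes name STAR, Partek and the builds GRCh38 and hg38, and tool versions, annotation and strand setting are not given in the sources used here. The table holds 22637 genes with a sum of at least 10.0 each, and 46.0% of its values are not whole numbers. Values were rounded, and 73 repeated names were resolved by using the first entry.

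TMM factors were computed over the 4 libraries with edgeR 4.0.16 in R 4.3.3, and ratios, intervals and figures with Python 3.11.15, numpy 2.4.6, pandas 2.3.3, SciPy 1.17.1 and matplotlib 3.10.9. No model was fitted. The depth of 19950537 to 26394267 counts sets the counting intervals. GENCODE release 29 gave positions and the longest transcript for 94.5% of genes. Scripts were tested on simulated data. The members and the lists were chosen with earlier results of these data known. All 34 members are given. Of each other list, counts past 1.5-fold are given, and up to 3 genes per direction with the largest change among those whose mean reached 10 normalized CPM, except that a few genes this rule selects are left out here. Alternatives were total counts, DESeq2 1.42.0 size factors, upper quartile factors, other pseudocounts, filters and fold limits.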

Additional observations from a re-analysis of the deposited data

Results flagged for a closer look

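For 7 members the log2 ratios of the 2 pairs lay in opposite directions, each with a counting interval that excludes 0. That is 22.6% of the 31 members analyzed in both pairs, beside 16.3% of 14602 genes, which were not matched to the members for level. The difference of the ratios, the 2B pair minus the LN pair, was 1.37 (95% counting interval 1.07 to 1.68) for ACOX3, 0.61 (0.48 to 0.75) for HADH, 0.61 (0.32 to 0.90) for DECR1, 0.49 (0.40 to 0.58) for HADHA and 0.30 (0.13 to 0.48) for ETFDH. It was -0.98 (-1.12 to -0.85) for ACAT1 and -0.52 (-0.73 to -0.32) for ACAD8. With 1 library per line, whether these members differ between the backgrounds was not tested.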

How the results depend on the processing

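Counts of members called moved with the fold limit. At a log2 ratio of 0.32 they were 7 higher and 8 lower within the 2B pair, 7 and 6 within the LN pair and 8 higher in C4-2B against LNCaP. At 2-fold they were 1 lower within the 2B pair, 0 higher within the LN pair and 3 lower in C4-2B against LNCaP. In the LN pair, a minimum of 0.1 normalized CPM or no filter gave 2 higher and 2 lower, as ACADL and ACSS1 then entered, scaling by total counts gave 2 lower, as ACADSB then passed, and a minimum of 10 gave 0 lower, as ACAA2 then left. With intervals that exclude 0, 4 members were lower in both pairs. Under total counts the members' medians became -0.03 (2B pair) and -0.05 (LN pair), where those of all genes were -0.0421 and -0.0882, and 0.08 in C4-2B against LNCaP with a minimum of 10. Of 388 member ratios under other scalings or another pseudocount, 377 stayed within the counting interval of the value given, and 11 in the LN pair under total counts did not. The ratio changed sign under total counts for 4 members, ACAD11 within the 2B pair and ACAD10, ECI2 and ACAA1 in the LN pair. A fit over all 4 libraries with the background as a block, which would leave 1 residual degree of freedom, was not run, and with 1 library per line none was left out of a pair. Depth limits ACSL4, ACSL5, ACSS1 and ACADL, which had under 25 counts in at least 1 library.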
